A study of Mus musculus with 9 samples.

Results

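The cytosolic heat shock chaperones and their helpers were followed in mouse liver as 10 transcripts, namely Hspa1a, Hspa1b, Hsph1, Dnajb1, Hspb1, Bag3, Hsp90aa1, Chordc1, Dnaja1 and Hspa8. They were chosen by gene symbol, with earlier results of these data known, so counts of them below are not from a blind choice. All 10 were found among the 11229 genes of the deposited expression table. RNA-seq was made from liver of 8-week-old C57BL/6 mice in 3 groups of 3 libraries. The first group had ischaemic postconditioning (IPO), short repeat occlusions made as blood flow comes back, the second had ischaemia-reperfusion alone (IR, written I/R in the labels), and the third had sham surgery. The labels do not give the length of ischaemia or the time of sampling, and they do not say that replicates are separate animals, so p-values cover only the variation among these libraries and part of it may be technical. Values are FPKM (fragments scaled to transcript length and to library size), so levels can be compared between genes. The number of reads behind them is unknown.

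Heat shock proteins keep other proteins folded. Unfolded protein in the cytosol frees the transcription factor HSF1, which binds inverted repeats of nGAAn in promoters and induces the chaperone genes within minutes. HSP70 binds unfolded stretches with the help of J-domain proteins, which trigger its ATP hydrolysis, and of nucleotide exchange factors, which make it let go. HSP90 finishes the folding of kinases and steroid receptors, and small heat shock proteins hold unfolded protein until HSP70 takes it over. In liver, heat, oxidants and ischaemia with reperfusion are known inducers of this system. Of the members, Hspa8 and Dnaja1 are treated here as constitutive and the other 8 as inducible. This grouping is a label and was not tested.

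All 9 libraries held 11178 to 11211 genes above 0, and FPKM summed to 375460 to 387000 in IPO, 363429 to 379117 in IR and 369625 to 385855 in sham libraries. Of 5 hepatocyte markers 4 were in the table, summing to 20190 to 22318 FPKM in IPO, 20070 to 27262 FPKM in IR and 15287 to 21506 FPKM in sham libraries. The 5 neutrophil markers summed to 46.9 to 127 FPKM in IPO, 10.4 to 71.1 FPKM in IR and 63.2 to 89.6 FPKM in sham libraries. The 5 Kupffer cell markers summed to 84.2 to 100.8 FPKM in IPO, 78.3 to 312 FPKM in IR and 67.0 to 93.6 FPKM in sham libraries, with the 312 in IR replicate 3. Stellate cell markers summed to 26.4 to 30.4 FPKM in IPO, 34.2 to 44.8 FPKM in IR and 23.1 to 27.8 FPKM in sham libraries. The 3 erythroid markers in the table summed to 231 to 332 FPKM in IPO, 343 to 736 FPKM in IR and 237 to 505 FPKM in sham libraries, and the 2 B cell markers in the table to 0.236 to 0.453 FPKM in IPO, 0.916 to 2.13 FPKM in IR and 0.322 to 0.691 FPKM in sham libraries. These 3 of the 10 marker lists were lower in every IPO than in every IR library. The same held for 8 of the 10 chaperones and for 20.4% of all genes averaging at least 1 FPKM. Marker sums of monocytes, sinusoidal endothelial cells, cholangiocytes and T and NK cells overlapped between IPO and IR. For T and NK cells the sum was 12.8 FPKM in IR replicate 3, against 1.33 and 1.14 FPKM in IR replicates 1 and 2. IR replicate 3 was the highest IR library for every marker list but those of hepatocytes and cholangiocytes, where it was the lowest. No marker in the table was at 0 in every library, and the part of these cells in the results below was not tested. In bulk tissue, fewer cells of a type and less RNA per cell cannot be told apart. Each library description carries a number whose meaning is not given. All IPO libraries share one, all IR libraries and sham replicate 2 share another, and sham replicates 1 and 3 share the third. The IPO group and its number cannot be told apart.

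Hspa1a and Hspa1b encode the inducible HSP70. They are neighbouring single-exon genes on the minus strand of chromosome 17 (mm10), Hspa1b at 34956436 to 34959238 and Hspa1a at 34969190 to 34972156. Their longest open reading frames had 1926 and 1929 bases in Hspa1a and Hspa1b and differed at 11 aligned positions, and their last 250 bases before the start differed at 3. Over the whole transcripts, of 2967 and 2803 bases, they differed at 436 of 2973 aligned positions, gaps included. Reads from the open reading frame of one can be counted to the other, so the split between them is uncertain. Promoter sequences of RefSeq (GRCm38.p6) were held for 8 of the 10 members, all but Hspa8 and Hsp90aa1. The 250 bases before the RefSeq start were searched for the paired HSF1 half-sites GAANNTTC and TTCNNGAA, each of which reads the same on both strands. Either was present in 5 of the 8 members, against 10.4% of 8598 promoters of genes in the table. Their extension to a full 3-unit heat shock element, one further inverted half-site at the same spacing, was in 0 of the 8 and in 0.337% of the 8598. Of the 5 members with a paired half-site, Hspa1a and Hspa1b have nearly identical sequences there, so they are not separate cases. The last 150 bases before the RefSeq start are shown, with matches in capitals, for the HSP70 pair and Hspb1, the 3 members whose match lay outside the gene as the deposited table places it, and for Bag3, which had none:
Hspa1a (chr17:34972157-34972306, minus strand): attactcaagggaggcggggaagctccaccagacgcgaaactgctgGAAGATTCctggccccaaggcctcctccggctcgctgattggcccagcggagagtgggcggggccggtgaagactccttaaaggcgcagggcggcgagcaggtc
Hspa1b (chr17:34959239-34959388, minus strand): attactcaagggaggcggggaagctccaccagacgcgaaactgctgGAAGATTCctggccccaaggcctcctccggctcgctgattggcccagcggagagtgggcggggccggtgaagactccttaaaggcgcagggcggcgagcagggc
Hspb1 (chr5:135887769-135887918, plus strand): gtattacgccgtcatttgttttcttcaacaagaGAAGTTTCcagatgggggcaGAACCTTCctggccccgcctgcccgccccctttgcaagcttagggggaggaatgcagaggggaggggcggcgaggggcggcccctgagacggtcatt
Bag3 (chr7:128523433-128523582, plus strand): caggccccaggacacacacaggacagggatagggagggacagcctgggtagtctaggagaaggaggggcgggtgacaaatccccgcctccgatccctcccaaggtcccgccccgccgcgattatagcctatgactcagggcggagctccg

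Both HSP70 genes carried the same GAAGATTC 104 bases before the RefSeq start, and Hspb1 carried GAAGTTTC and GAACCTTC 117 and 97 bases before its own. Hsph1 held TTCTCGAA 33 bases and Dnaja1 GAAAATTC 124 bases before the RefSeq start, but that start lies 40 bases inside the gene as deposited for Hsph1 and 318 bases inside it for Dnaja1. Both of these matches therefore lie within the gene as quantified. In turn Dnajb1, Chordc1 and Bag3 held neither pair in this window. A match describes letters only, and its absence covers this window only.

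Compared with IR livers, IPO livers had less mRNA for 5 of the 10 chaperones. Hspa1a, Hspa1b, Hsph1, Dnajb1 and Hspa8 fell past the test, the largest differences being in the HSP70 pair, and no member rose. Of the 10 members, 5 were called lower at a limma adjusted p under 0.05, against 10.1% of the 9649 genes tested (those with a mean of at least 1 FPKM). The test adjusted p-values over all of these genes by Benjamini-Hochberg. None was called higher, against 12% of genes, and 8 had an unadjusted p under 0.05, against 36.9%. The median log2 fold change of FPKM + 0.5 was -0.91 over the members and 0.02 over all genes. In 8 members every IPO library lay below every IR library, against 20.4% of genes. Bag3 was the 1 member with the opposite order, as were 22.2% of genes, and Chordc1 was the 1 member whose groups overlapped.

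**Figure D1:**
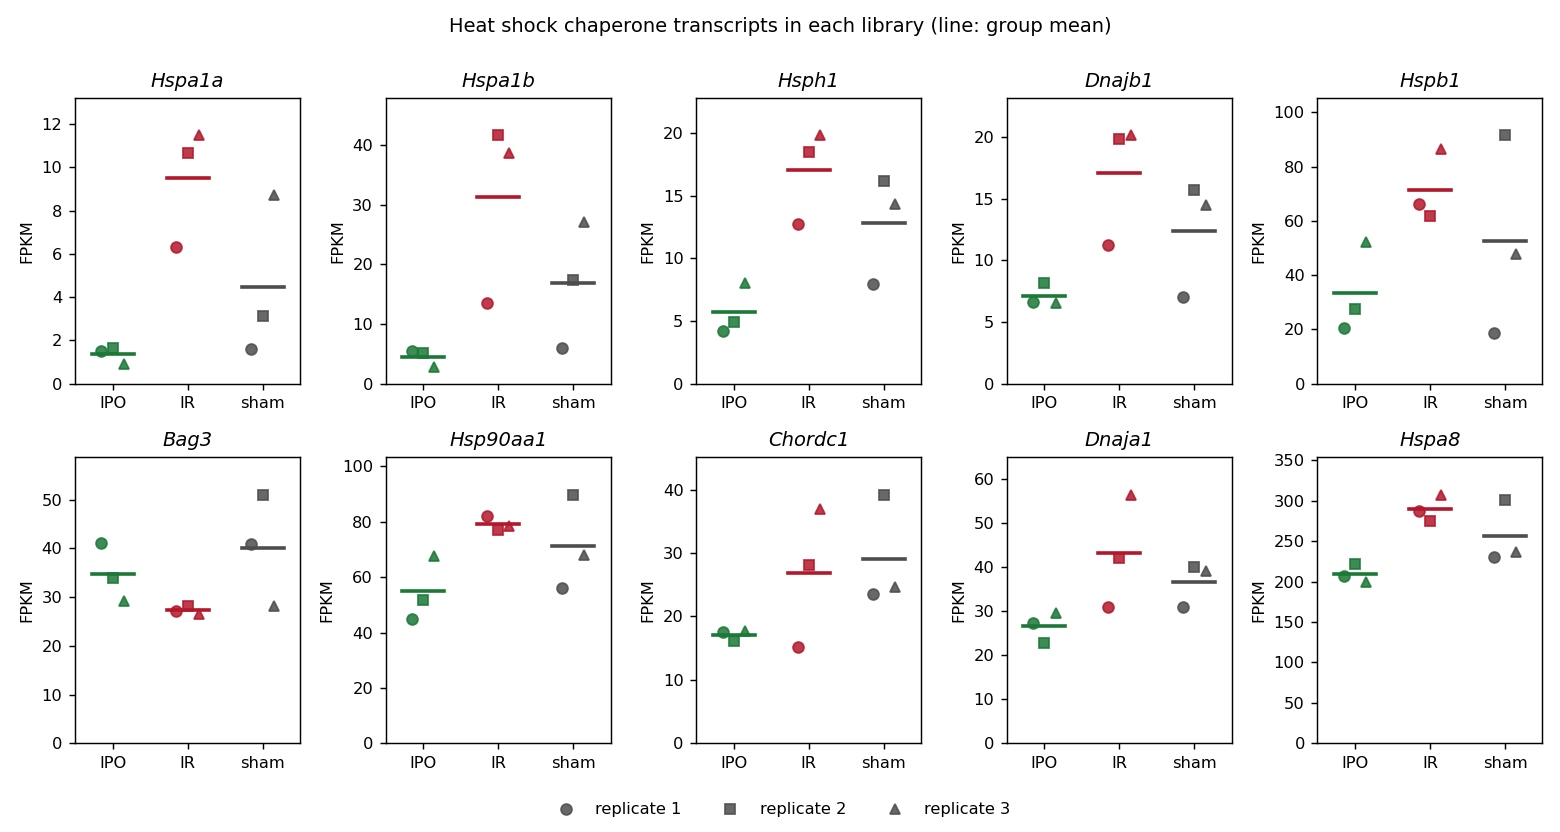
FPKM of each of the 10 transcripts in the 9 libraries, with IPO, IR and sham from left to right in every panel; points are libraries, symbols give the replicate number and lines are group means. For Hspa1b the IPO libraries lie at 2.73 to 5.44 FPKM, all below the IR libraries at 13.5 to 41.7 FPKM, and sham replicate 1 lies near the IPO libraries.

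Hspa1b stood at 5.44, 5.21 and 2.73 FPKM in IPO replicates 1 to 3, against 13.5, 41.7 and 38.6 FPKM in IR replicates 1 to 3. Its log2 fold change was -2.58 (SE 0.56, limma adjusted p = 0.0126). All IPO libraries were low, IR replicates 2 and 3 were high, and IR replicate 1 lay between. Hspa1a stood at 1.51, 1.65 and 0.916 FPKM in IPO, against 6.30, 10.7 and 11.5 FPKM in IR, and its log2 fold change was -2.41 (SE 0.46, limma adjusted p = 0.00752). The same libraries were high and low as for Hspa1b. Summed as a single feature, the pair differed by -2.64 on the log2 scale (SE 0.54, limma adjusted p = 0.0102). The level of Hspa1b was 2.98 to 3.62 times that of Hspa1a in IPO, 2.15 to 3.90 times in IR and 3.12 to 5.59 times in sham libraries. Without IPO replicate 3 the adjusted p of Hspa1b was 0.0506.

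The table of unannotated loci held a minus-strand locus that spans the pair, at 34956431 to 34972156 on chromosome 17. It is counted from reads of the same libraries, so it is no independent support. Its level was 3.23, 3.19 and 1.70 FPKM in IPO, against 9.42, 24.7 and 23.5 FPKM in IR, and it was 3.51, 8.81 and 16.8 FPKM in sham libraries. The order of the libraries was thus close to that of Hspa1b. A second locus on the strand of its gene lay within Hsp90aa1 (chromosome 12, 110691029 to 110695951), at 43.9 to 65.7 FPKM in IPO, 73.0 to 108 FPKM in IR and 56.4 to 125 FPKM in sham libraries. The other 11 unannotated loci over members were on the opposite strand, with means of at most 4.56 FPKM, that of the locus opposite Hspa8.

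The helpers of HSP70 had fold changes closer to 0 than the pair. Hsph1 (chromosome 5, 149614287 to 149636376), the HSP110 exchange factor of HSP70, stood at 4.17, 4.94 and 8.01 FPKM in IPO, against 12.7, 18.5 and 19.8 FPKM in IR. It fell by 1.52 on the log2 scale (SE 0.30, limma adjusted p = 0.00876), with no overlap between the groups. Dnajb1 (chromosome 8, 83608175 to 83611902), the inducible J-domain protein also called HSP40, stood at 6.62, 8.19 and 6.56 FPKM in IPO, against 11.2, 19.8 and 20.2 FPKM in IR. It fell by 1.17 (SE 0.31, limma adjusted p = 0.0261), and IR replicate 1 was again the lowest of its group. Its adjusted p was 0.0812, 0.0528 and 0.0815 without IPO replicates 1, 2 and 3, and 0.0766 and 0.0619 without IR replicates 2 and 3.

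Dnaja1 (chromosome 4, 40722150 to 40737149) is a J-domain protein treated here as constitutive. It stood at 27.2, 22.7 and 29.6 FPKM in IPO, against 30.9, 42.1 and 56.4 FPKM in IR. The groups did not overlap, but its log2 fold change of -0.66 (SE 0.21) had a limma adjusted p of 0.0528. Scaling by median of ratios gave 0.0295 for it, and leaving out IR replicate 1 gave 0.0173. Bag3 (chromosome 7, 128523616 to 128546981) is an exchange factor that links HSP70 to small heat shock proteins and autophagy. It stood at 41.1, 33.9 and 29.1 FPKM in IPO, against 27.1, 28.2 and 26.5 FPKM in IR. Every IPO library lay above every IR library, with a log2 fold change of 0.33 (95% interval -0.14 to 0.80, limma adjusted p = 0.278).

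Hspa8 (chromosome 9, 40800984 to 40805200), the constitutive HSP70 of the cytosol, was the most abundant member and ranked 194th by mean level among the genes in the table. It stood at 207, 222 and 199 FPKM in IPO, against 288, 276 and 308 FPKM in IR. It fell by 0.47 (SE 0.13, limma adjusted p = 0.0288), and its libraries lay closer together within each group than those of the inducible pair. Its adjusted p was 0.0814, 0.0615 and 0.0989 without IPO replicates 1, 2 and 3, and 0.0558 and 0.0633 without IR replicates 2 and 3. Within a library, the log2 ratio of Hspa1a plus Hspa1b to Hspa8 averaged -5.23 ± 0.47 in IPO and -2.96 ± 0.79 in IR (SD, n = 3 each, two-sided exact permutation p = 0.1, Benjamini-Hochberg 0.3 over 6 ratios). That p of 0.1 is the smallest that 3 against 3 libraries allow. All 3 IPO ratios lay below all 3 IR ratios.

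Members of the HSP90 and small heat shock protein systems had fold changes in the same direction that did not pass the test. Hsp90aa1 (chromosome 12, 110690605 to 110702728), the stress-inducible HSP90, stood at 45.1, 51.9 and 67.8 FPKM in IPO, against 82.2, 77.0 and 78.6 FPKM in IR. The groups did not overlap, and its log2 fold change was -0.55 (95% interval -0.98 to -0.11, limma adjusted p = 0.0707). Hspb1 (chromosome 5, 135887919 to 135889563), the small heat shock protein HSP25, stood at 20.6, 27.6 and 52.1 FPKM in IPO, against 66.2, 61.7 and 86.6 FPKM in IR. IPO replicate 3 lay nearest to the IR libraries, and the log2 fold change was -1.18 (95% interval -2.32 to -0.03, limma adjusted p = 0.126). Its adjusted p was 0.0491 without sham replicate 1 and 0.0423 when only the IPO and IR libraries were fitted. Chordc1 (chromosome 9, 18292267 to 18314000), an HSP90 cochaperone, stood at 17.6, 16.1 and 17.7 FPKM in IPO, against 15.2, 28.2 and 37.0 FPKM in IR. IR replicate 1 lay below every IPO library, so the groups overlapped, and the log2 fold change was -0.54 (95% interval -1.21 to 0.13, limma adjusted p = 0.221). Without IR replicate 1 it was -0.90, with an adjusted p of 0.0302.

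**Figure D2:**
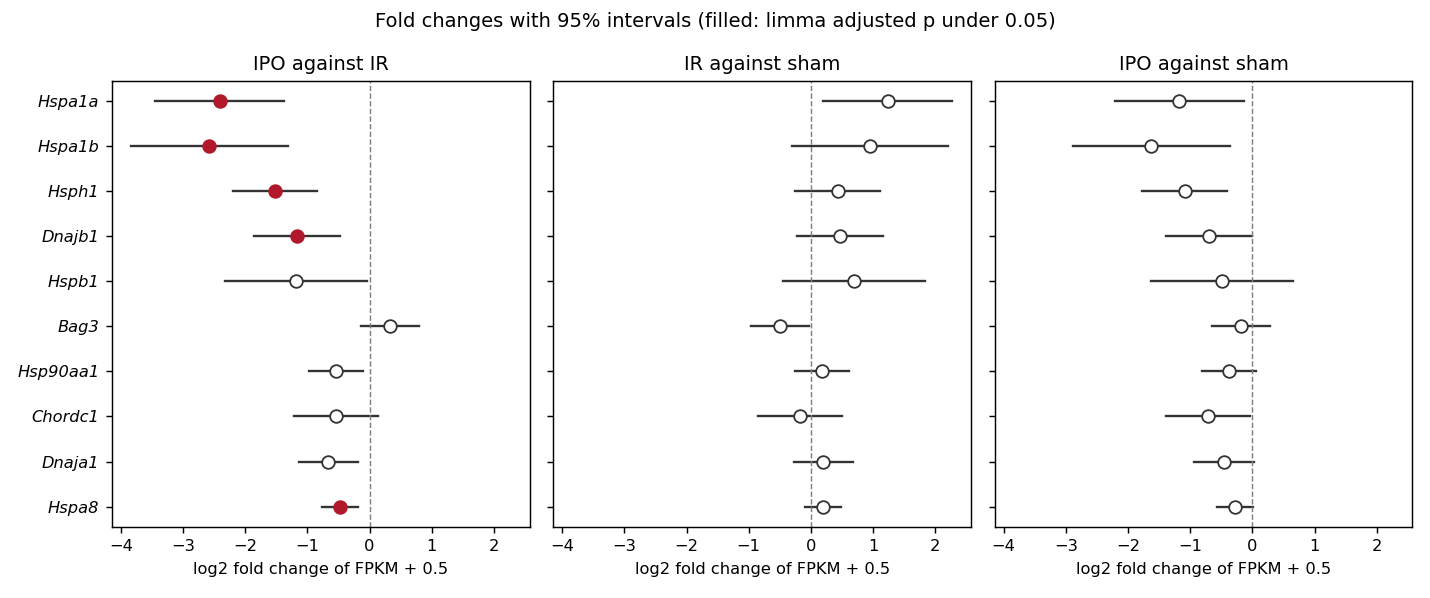
Log2 fold change of FPKM + 0.5 with its 95% interval for the 10 members in IPO against IR, IR against sham and IPO against sham; filled points passed the limma test at an adjusted p under 0.05. The 5 filled points are all in IPO against IR and run from -2.58 for Hspa1b to -0.47 for Hspa8, while Bag3 lies at 0.33.

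The authors' deposited table of genes lower in IPO than in IR holds 676 genes, beside 11229 in the expression table. It lists 5 of the members, Hspa1b, Hspa1a, Hsph1, Hspb1 and Dnajb1. In the authors' deposited table their log2 fold changes, on a scale of log2(FPKM + 1), are -2.46, -2.13, -1.44, -1.16 and -1.12, with q-values of 0.0836, 0.0380, 0.0740, 0.165 and 0.0953. The authors' deposited tables for IR against sham hold 320 genes higher and 567 lower in IR, and list 0 of the members. The authors' deposited table of genes lower in IPO than in sham holds 127 genes and lists Chordc1, at -0.70 with a q-value of 0.351. Those tables hold genes with a p under 0.05 before adjustment and a log2 difference of at least 0.585.

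IR livers did not differ from sham livers in any member past the test. The background was 3.86% of genes called higher and 7.64% called lower, and 2 members, Hspa1a and Bag3, had an unadjusted p under 0.05, against 29.8% of genes. In all 10 members the IR and sham libraries overlapped, while 13.2% of genes lay wholly higher and 19.3% wholly lower in IR. The mean was higher in IR for 8 members and lower for Bag3 and Chordc1. The median log2 fold change was 0.32 over the members and -0.05 over all genes. IPO against IR and IR against sham share the IR libraries, so their signs are not independent.

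The sham libraries were spread widely. Hspa1a stood at 1.62, 3.12 and 8.71 FPKM in sham replicates 1 to 3 and Hspa1b at 5.95, 17.4 and 27.2 FPKM, so the highest sham library held 5.38 and 4.57 times the lowest. The corresponding ratio within IR was 1.82 for Hspa1a and 3.08 for Hspa1b, and within IPO it was 1.80 and 2.00. Sham replicate 1 was the lowest of its group for 9 of the 10 members, all but Bag3, and sham replicate 2 was the highest for 8. Sham replicates 1, 2 and 3 lay within the range of the IPO libraries for 5, 0 and 1 members. They lay within the range of the IR libraries for 1, 5 and 7. Hspb1 stood at 18.8, 91.7 and 47.7 FPKM in sham replicates 1 to 3, so replicate 1 was below every IPO library and replicate 2 above every IR library. In IR the lowest library was replicate 1 for 6 members and the highest was replicate 3 for 7. None of these counts was made over all genes, so they only describe the members.

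**Figure D3:**
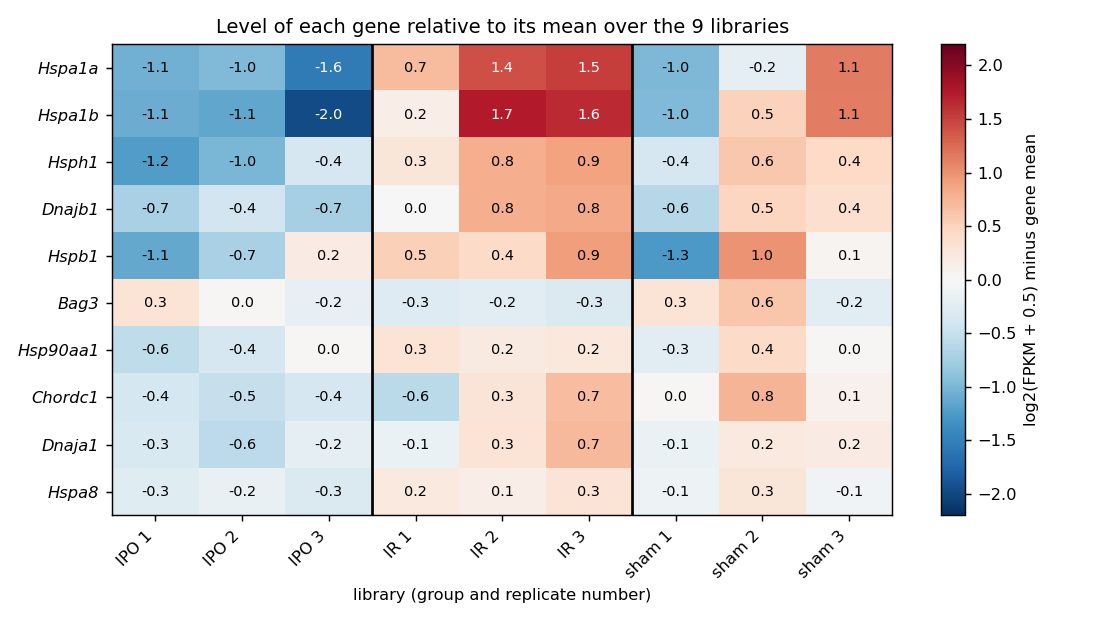
Log2(FPKM + 0.5) of each member minus its mean over the 9 libraries, in red where higher and in blue where lower; columns are libraries, IPO then IR then sham, and each cell gives its value. IPO libraries are blue in most rows other than Bag3, and sham replicate 1 is blue for 8 members while sham replicate 2 is red for 9.

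For Hspa1a the log2 fold change of IR over sham was 1.23 (95% interval 0.19 to 2.27, limma adjusted p = 0.111). Without sham replicate 3 it was 1.81, with an adjusted p of 0.00991. For Hspa1b it was 0.95 (95% interval -0.31 to 2.21, adjusted p = 0.283). Its inducible partners Hsph1 and Dnajb1 had values of 0.43 and 0.47, with adjusted p of 0.366 and 0.327, and averaged 17.0 ± 3.79 and 17.1 ± 5.08 FPKM in IR and 12.8 ± 4.31 and 12.4 ± 4.67 FPKM in sham libraries (SD, n = 3 each). Bag3 averaged 27.3 ± 0.869 FPKM in IR and 40.0 ± 11.4 FPKM in sham libraries, a log2 fold change of -0.50 (95% interval -0.97 to -0.04, limma adjusted p = 0.14). Its sham libraries stood at 40.8, 51.0 and 28.2 FPKM, so replicate 3 alone was near the IR level. Without sham replicate 3 the value for Bag3 was -0.73, with an adjusted p of 0.0256.

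The remaining 5 members lay within 0.70 of 0 on the log2 scale in IR against sham. Hspb1 had 0.69, Hspa8 0.19, Dnaja1 0.20, Hsp90aa1 0.18 and Chordc1 -0.17, with limma adjusted p from 0.345 to 0.733. Their sham libraries stood at 231, 301 and 237 FPKM for Hspa8, at 56.1, 89.9 and 68.1 FPKM for Hsp90aa1, at 30.9, 39.9 and 39.1 FPKM for Dnaja1, and at 23.6, 39.2 and 24.6 FPKM for Chordc1. Sham replicate 2 was the highest in each. Among the libraries that share the description number of IR, the 3 IR libraries were set against sham replicate 2 alone. The spread came from the IR, IPO and remaining sham libraries. In that contrast Hspb1 had -0.37, Hsp90aa1 -0.18 and Hspa8 -0.05, the reverse of their signs over all libraries. Hspa1a had 1.42 and Hspa1b 0.67. The value for Hsph1 was 0.05 there and that for Dnajb1 0.07, and Bag3 had -0.89. None of these passed the test.

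IPO livers lay below sham livers in the mean of all 10 members, but 0 passed the limma test. The background was small, with 0.124% of genes called higher and 0.104% called lower. An unadjusted p under 0.05 was found for 5 members, Hspa1a, Hspa1b, Hsph1, Dnajb1 and Chordc1, against 12.3% of genes. The median log2 fold change was -0.59 over the members and -0.03 over all genes. Every IPO library lay below every sham library for Hspa1b, Chordc1, Dnaja1 and Hspa8, against 13.2% of genes. No member had the opposite order, against 9.59% of genes. Hsph1 had the smallest p, at -1.09 on the log2 scale (SE 0.30, limma adjusted p = 0.186), and its IPO library at 8.01 FPKM overlapped sham replicate 1 at 7.94 FPKM. Hspa1b had the largest difference, -1.62 (95% interval -2.88 to -0.36, limma adjusted p = 0.286). Chordc1 averaged 17.1 ± 0.869 FPKM in IPO and 29.1 ± 8.74 FPKM in sham libraries (SD, n = 3 each), a log2 fold change of -0.71 (adjusted p = 0.373). Hspb1 and Bag3 had -0.49 and -0.17, and without sham replicate 2 both were near 0, at 0.05 and 0.02.

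The 2 forms of HSP90 were compared within each library. Hsp90ab1, the constitutive form, stood at 167, 218 and 258 FPKM in IPO, at 311, 353 and 380 FPKM in IR, and at 208, 323 and 311 FPKM in sham libraries. Unlike Hsp90aa1 it passed the test in IPO against IR, at -0.71 on the log2 scale (SE 0.21, limma adjusted p = 0.0364), but that does not show that the 2 forms differ. Its adjusted p was 0.12, 0.0827, 0.0511, 0.0848 and 0.0779 without IPO replicate 1, IPO replicate 2, IR replicate 1, IR replicate 2 and IR replicate 3. The log2 ratio of Hsp90aa1 to Hsp90ab1 averaged -1.96 ± 0.10 in IPO, -2.13 ± 0.19 in IR and -1.97 ± 0.19 in sham libraries (SD, n = 3 each). The exact permutation p was 0.3 for IPO against IR, 0.2 for IR against sham and 1 for IPO against sham. With 3 libraries a group this test cannot go below 0.1, so it could not have shown a shift at 0.05. For the HSP70 ratio above, the sham mean was -3.84 ± 1.11, with an exact permutation p of 0.2 for IR and for IPO against sham.

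**Figure D4:**
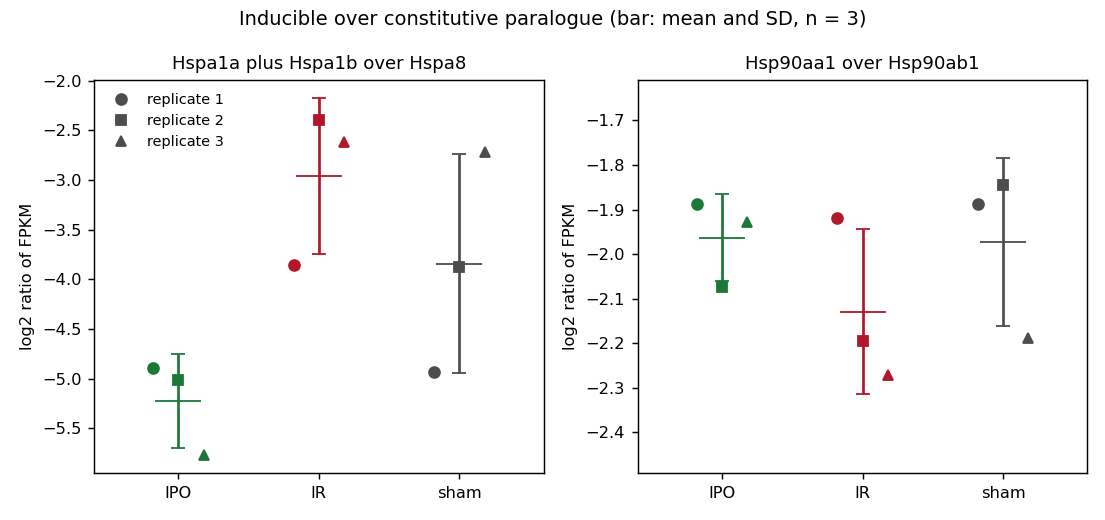
Log2 ratio of FPKM within each library of the inducible HSP70 pair to Hspa8 and of Hsp90aa1 to Hsp90ab1, for IPO, IR and sham; bars give the mean and SD of 3 libraries and symbols the replicate number. The HSP70 ratio averages -5.23 in IPO, -2.96 in IR and -3.84 in sham libraries, with sham replicate 1 at -4.93 beside the IPO libraries.

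Other genes of the chaperone network were taken from 6 lists holding 92 genes, of which 81 were in the table. Among 11 tested HSF1 targets and regulators 3 fell in IPO against IR, Dedd2 and Hsf2 among them, 0 rose and 8 were not called, at a median of -0.42, where 10.1% of all genes were called lower and 12% higher. In IR against sham 2 of the 11 rose and 9 were not called, where 3.86% of all genes were called higher and 7.64% lower. Ubb, a stress-induced gene of this list, was among the 2 and averaged 308 ± 20.7 FPKM in IR and 199.7 ± 4.38 FPKM in sham libraries, a log2 difference of 0.62 (limma adjusted p = 0.0159). Its adjusted p was 0.0657 and 0.0547 without sham replicates 1 and 2 in turn, and 0.126 with the description number as a term. Hsf2, a factor related to HSF1, averaged 5.22 ± 0.536 FPKM in IPO and 10.8 ± 3.60 FPKM in IR (log2 fold change -0.93, adjusted p = 0.0384). The call of Hsf2 was lost without IPO replicate 1, 2 or 3 or IR replicate 2 or 3 (adjusted p 0.0749 to 0.110), and that of Dedd2, at -0.93 with an adjusted p of 0.0167, without IPO replicate 1 or 3 (0.0630 and 0.0633). Hsf1 itself had -0.42 with an adjusted p of 0.0534 in that comparison, and -0.32 with an adjusted p of 0.373 in IPO against sham.

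Among 27 tested HSP70, J-domain and exchange factor genes outside the members, 2 fell in IPO against IR, Dnajb4 and Dnaja4, 1 rose, Dnajc13, and 24 were not called, at a median of 0.01. Both shares were below those over all genes, 10.1% lower and 12% higher. Dnajb4, a J-domain protein close to Dnajb1, stood at 2.01, 2.98 and 3.23 FPKM in IPO, against 7.34, 10.8 and 11.02 FPKM in IR, and 3.88, 6.50 and 6.11 FPKM in sham libraries. Its log2 fold change in IPO against IR was -1.66 (SE 0.24, limma adjusted p = 0.00243), and it stayed past the test in all 19 alternatives. None of the 27 passed the test in IR against sham (5 had an unadjusted p under 0.05, a smaller share than the 29.8% of all genes), with 0.78 for Dnajb4 (adjusted p = 0.0636) and -0.77 for Hspa14 (ENSMUSG00000109865.1, adjusted p = 0.0615), whose symbol stands for 2 overlapping genes. Dnajb4 had 0.0404 there with median-of-ratios scaling and 0.0438 with quantile normalization. Dnajc13 was past the test in 3 of 18 alternatives and Dnaja4 in 10 of 18, and both had adjusted p near the threshold, 0.0498 and 0.0449. Their log2 fold changes were 0.50 and -0.62. Dnaja4 lost its call without IPO replicate 1, 2 or 3, IR replicate 2 or 3 or sham replicate 2, and Dnajc13 without any of the 9 libraries but IR replicate 3.

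Among 18 tested HSP90 genes and cochaperones 4 fell in IPO against IR, Fkbp4, Cdc37, Stip1 and Hsp90ab1, 0 rose and 14 were not called, at a median of -0.33, against 10.1% of all genes lower and 12% higher. Fkbp4, a steroid receptor cochaperone, averaged 22.3 ± 5.83 FPKM in IPO and 42.3 ± 3.43 FPKM in IR (log2 fold change -0.93, limma adjusted p = 0.0206). Stip1, which hands clients from HSP70 to HSP90, averaged 23.5 ± 5.44 FPKM in IPO and 40.5 ± 3.82 FPKM in IR (-0.79, adjusted p = 0.0299). Cdc37, which brings kinases to HSP90, averaged 24.3 ± 0.878 FPKM in IPO and 33.5 ± 3.37 FPKM in IR (-0.45, adjusted p = 0.021). Adjusted p was 0.0578 to 0.0761 for Fkbp4 without IPO replicate 1, IPO replicate 2 or IR replicate 2. It was 0.0649 to 0.103 for Stip1 without any 1 of these or IR replicate 3. For Cdc37 it was 0.0572 to 0.0721 without IPO replicate 1, 2 or 3, and 0.0583 with quantile normalization. Of the 18, 2 fell in IR against sham, where 7.64% of all genes did, Fkbp5 (-0.72, adjusted p = 0.0436) and Ttc4 (-0.41, adjusted p = 0.0454). Ttc4 lost its call without any 1 of the 9 libraries and Fkbp5 without any but IR replicates 2 and 3. With all libraries kept, Fkbp5 had 0.0957 with only IR and sham fitted and 0.195 with the description number, and Ttc4 had 0.0506 to 0.220 with no filter, either scaling or these fits. In IPO against sham Ahsa1, the activator of the HSP90 ATPase, had the smallest p of the list, at -0.50 with an adjusted p of 0.194.

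The other chaperone classes showed no calls in any of the 3 comparisons by limma. Of all genes, 10.1% were called lower and 12% higher in IPO against IR, and 7.64% and 3.86% in IR against sham. In IPO against sham these shares were only 0.104% and 0.124%. In IPO against IR 0 of 4 small heat shock proteins, 0 of 7 subunits of the chaperonin TRiC and 0 of 13 mitochondrial and ER paralogues passed the test, and 1, 0 and 1 had an unadjusted p under 0.05, smaller shares than the 36.9% of all genes. In IR against sham those unadjusted counts were 0, 1 and 3, against 29.8% of all genes, and in IPO against sham they were 1, 1 and 1, against 12.3%. Hspb8, the abundant small heat shock protein that works with BAG3, stood at 256, 267 and 294 FPKM in IPO, against 281, 152 and 175 FPKM in IR (log2 fold change 0.47, adjusted p = 0.178). The median log2 fold change in IPO against IR was -0.15, 0.04 and 0.02 for these 3 classes. In IPO against sham none of the 6 lists had a call, and the unadjusted counts of the first 3 were 1 of 11, 2 of 27 and 3 of 18.

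**Figure D5:**
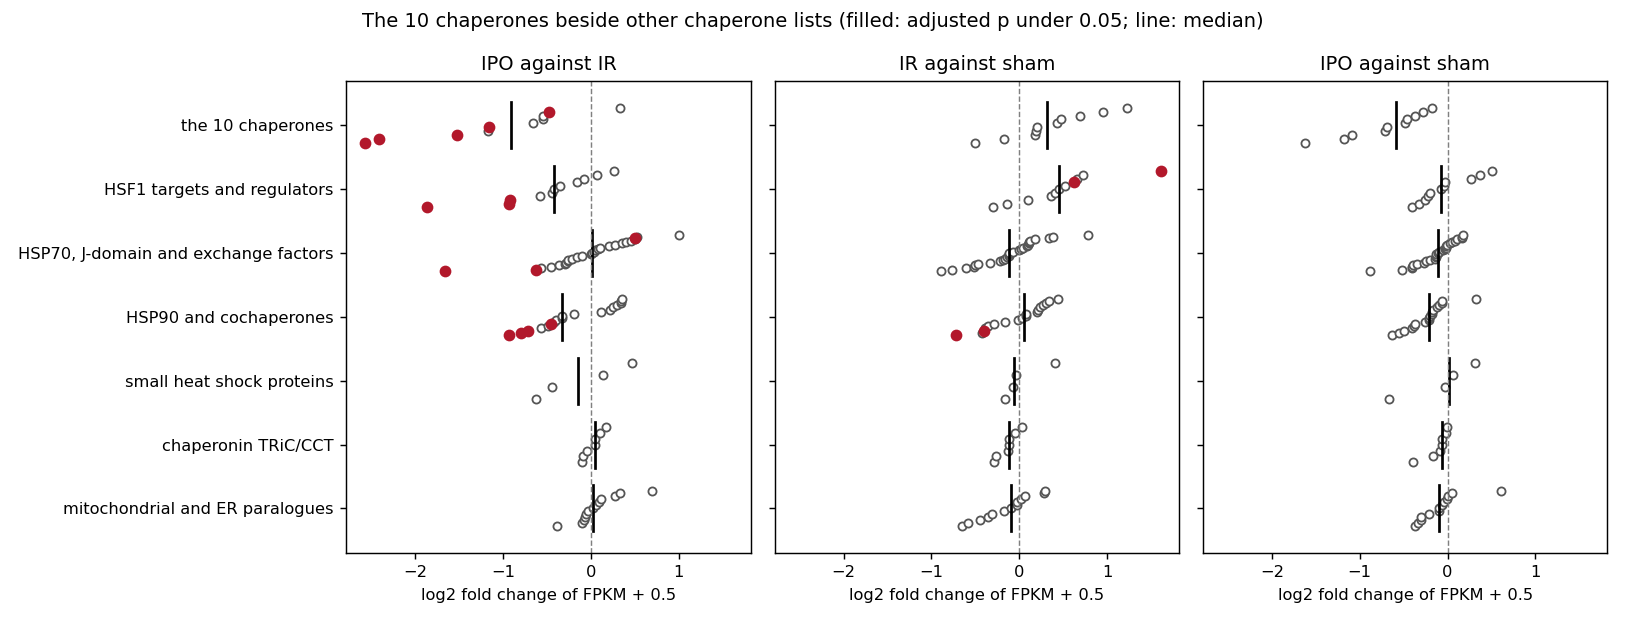
Log2 fold change of FPKM + 0.5 of single genes in the 10 chaperones and in 6 other chaperone lists, for IPO against IR, IR against sham and IPO against sham; filled points passed the limma test and lines are medians. In IPO against IR the medians are -0.91 for the 10 chaperones, -0.42 for HSF1 targets and regulators, -0.33 for HSP90 and cochaperones, and 0.04 for TRiC.

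The genes with the most similar pattern were sought for each member by the root mean square difference of log2(FPKM + 0.5), each gene centred on its mean over the 9 libraries. These are descriptions over 9 libraries that share group, depth and scaling. The difference is not scaled to a member's own spread, so it cannot be compared between members. That spread, as root mean square, was 1.14 for Hspa1a and 1.27 for Hspa1b, but 0.31 for Hsp90aa1 and Bag3 and 0.22 for Hspa8. Among the 3 nearest genes of each member, 30 in all, 3 were members. These were Hspa1b for Hspa1a, Hspa1a for Hspa1b and Hsph1 for Hspb1. Reads of the HSP70 pair can be counted to either gene, so the values of the pair are not independent. Hspa1a and Hspa1b differed by 0.35, and Spata2l was near both, at 0.33 from Hspa1a and 0.41 from Hspa1b. Tmem25 was 0.37 from Hspa1a and Nr0b2 0.52 from Hspa1b. Nr0b2, the nuclear receptor SHP of bile acid signalling, stood at 4.66, 1.64 and 3.09 FPKM in IPO, 7.08, 41.5 and 42.3 FPKM in IR and 4.36, 12.55 and 13.3 FPKM in sham libraries. As in Hspa1b, IR replicates 2 and 3 were high and IR replicate 1 was not.

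The nearest genes of Hsph1 were the chaperone genes Dnajb4 at 0.21 and Fkbp4 at 0.28, followed by Pfkfb1, also at 0.28. For Hspb1 they were Lrrc61 at 0.35, Fkbp4 at 0.43 and Hsph1 at 0.43, and Dnaja1 had Dnaja4 as its second, at 0.14, between Txlng at 0.11 and Ctf1 at 0.14. The nearest genes of Dnajb1 were Slc17a8, Zfyve1 and P4ha1, and those of Chordc1 were Fchsd2, Ccnf and Rpa3, at 0.17 to 0.21. Hsp90aa1 had Tmem37 at 0.06, with Dapk3 and Pex11g at 0.12, and Hspa8 had Mettl8, Ppme1 and Efna5 at 0.07 to 0.09. Bag3 was nearest to Trmt6, Zfp330 and Exosc4, at 0.09 to 0.10, and none of these is a chaperone. Trmt6 stood at 3.98, 3.28 and 3.07 FPKM in IPO, 2.52, 2.42 and 2.37 FPKM in IR and 3.57, 4.51 and 2.48 FPKM in sham libraries, low in all IR libraries and in sham replicate 3, as Bag3 was. Of the 30, 25 were again among the 3 nearest with a pseudocount of 1.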

How the data were processed

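RNA-seq libraries of mouse liver, 3 from IPO, 3 from IR and 3 from sham surgery, were analysed from the deposited tables. The labels give flash-frozen liver, Trizol and a KAPA stranded kit, and the submitters' processing notes name mm10; for the aligner and the quantifier the sources used here give no name. FPKM per library, for genes and for unannotated loci, were computed by the authors. In the authors' deposited comparison tables the log2 fold change is a difference of mean log2(FPKM + 1), the fold change is the ratio it gives, and for the test behind the p-value and q-value the sources used here give no name. Per the file headers, locus length is in bases. All value columns matched a library, and 1 line of the gene table was empty. The members and lists were chosen with earlier results of these data known.

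Genes averaging 1 FPKM or more over all libraries (9649 of 11229, all 10 members included) were fitted as log2(FPKM + 0.5) in a limma model (limma 3.58.1, R 4.3.3, variance trend, 6 residual degrees of freedom, prior 3.56) of the 3 group means, with two-sided tests and Benjamini-Hochberg adjustment over all genes. Fold changes on this scale understate those of low genes. Low values were near whole numbers of reads for 29 to 34.5% of 200 values a library at the best step tried, against 20% by chance at any 1 step, so depth was not recovered and no counting error is given. On simulated data for IPO against IR with 9649 genes, 67 of 100 genes changed 2-fold and 95 of 100 changed 4-fold were recovered. Ratios within a library were compared by exact permutation over 10 splits. Of 6 chaperone lists, the genes with the smallest p (up to 3 a comparison) and all calls up to 5 could be named. A called gene of these lists is not reported here. For each member the 3 genes nearest in pattern were named, with predicted and clone-named genes left out.

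Replicate numbers recur in each group. Over 9 same-numbered pairs the residual correlation ran from -0.137 to 0.0653, so the numbers were not taken to pair libraries. The alternatives changed the pseudocount (0.1 or 1), the minimum mean (none or 5 FPKM), the scaling (median of ratios or quantiles), the model (replicate block, only the 2 groups compared, robust variance, description number as a term) or the libraries (each left out once). The term for the description number marked only the 2 sham libraries that did not share the number of IR. It left every fold change of IPO against IR as it was, so it did not adjust that comparison for the number. The sum of Hspa1a and Hspa1b was added after seeing the data.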

Additional observations from a re-analysis of the deposited data

How the results depend on the processing

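In IPO against IR, 5 to 6 of the 10 members were called lower under the alternatives that kept all libraries, and 2 to 7 with 1 library left out. The count was 2 without IPO replicate 3, 3 without IPO replicate 1 or 2 or IR replicate 2 or 3, and 7 without IR replicate 1; 0 were called higher in any. Calls fell over all genes too: 979 were lower with all libraries, against 444, 555 and 473 without IPO replicates 1, 2 and 3, and 814, 645 and 839 without IR replicates 1, 2 and 3. Hspa1a and Hsph1 kept their calls in all 19 alternatives, though the description number as a term left IPO against IR unadjusted for it. In IR against sham 0 to 1 members were called in each direction, the 1 of each without sham replicate 3, and in IPO against sham 0. The replicate block left 5 members called lower in IPO against IR, with Dnaja1 (adjusted p = 0.0455) in place of Hspa8 (0.0555); it ended the calls of Cdc37 (0.0519) and Dnajc13 (0.0890) and, in IR against sham, of Fkbp5 (0.0692) and Ttc4 (0.0918), and Dnajb4 had 0.0180 there. Same-numbered libraries share only a number, and 1 of 9 correlated best with its own. Over all genes the block gave 939 higher and 733 lower in IPO against IR (1154 and 979 without it), 212 and 434 in IR against sham (372 and 737), and 2 and 0 in IPO against sham (12 and 10).

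In IPO against IR the HSP70 list had 1 call with a mean of at least 5 FPKM, with 2 groups only and with the description number, and the small heat shock proteins 1 with median-of-ratios scaling, quantiles or the replicate block. In IR against sham the HSP90 list had 1 call with no filter, 5 FPKM or either scaling, and 0 with the block, 2 groups or the description number. There the HSP70 list had 1 call with either scaling and 2 with the block, the mitochondrial and ER list 1 with quantiles and 2 with the description number, and the HSF1 list 1 with 2 groups and 0 with the description number. Calls changed over all genes too. In IR against sham 372 genes were higher and 737 lower in the main fit. The counts were 118 and 223 with 2 groups, and 56 and 130 with the description number. In IPO against IR they were 1154 and 979 in the main fit, 991 and 824 with 2 groups, and 1033 and 837 with the description number. That term marked sham libraries only, so it changed the estimate of the spread there and not the fold changes. Leaving out 1 library gave 1 to 3 calls for the HSF1 list, 1 to 5 for HSP70, 0 to 5 for HSP90, 0 to 2 for small heat shock proteins and 0 to 1 for the paralogues in IPO against IR. In IR against sham it gave 0 to 3, 0 to 1, 0 to 1, 0 and 0 to 1. Over all genes it gave 633 to 1261 higher and 444 to 1011 lower in IPO against IR. In IR against sham those counts were 100 to 467 and 210 to 894.

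With the description number as a term, IR against sham reversed for Hspb1 (-0.37), Hsp90aa1 (-0.18), Hspa8 (-0.051), Dnaja4 (-0.039) and Stip1 (-0.051). With 1 library left out, values in IR against sham ran from -0.44 to 0.19 for Chordc1, -0.011 to 0.42 for Dnaja1 and -0.047 to 0.27 for Dnaja4. In IPO against sham they ran from -1.08 to 0.046 for Hspb1, -0.40 to 0.019 for Bag3 and -0.035 to 0.069 for Dnajc13. The log2 ratio of Hsp90aa1 to Hsp90ab1 in IPO against sham ran from -0.098 to 0.075. The cause of these changes was not tested.

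Depth is unknown, so counting error could not be given, and low genes such as Hspa1a are the least certain. Each group has 3 libraries, the IPO group and its description number cannot be told apart, and a member that missed the threshold is not shown to be equal between groups.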
